A study of Homo sapiens with 47 samples.

Results

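The genes that carry glucose carbon through glycolysis and into the mitochondrion were followed in RNA-seq libraries of WA09 (H9) cells, an established human embryonic stem cell (hESC) line. The set was named gene by gene from textbook biochemistry and holds 32 of the 58051 genes listed in each library. It covers the enzymes of glycolysis, lactate dehydrogenase, the PFKFB enzymes that set the level of the phosphofructokinase activator fructose 2,6-bisphosphate, the pyruvate dehydrogenase kinases, subunits of pyruvate dehydrogenase and the mitochondrial pyruvate carrier. In all, 47 libraries were analysed. At t0 the cells were undifferentiated and grown in mTESR1. At 36 h they had been kept in N2B27 without vitamin A and with CHIR-99021 (a WNT pathway agonist), rhFGF2, AGN193109 (a retinoic acid receptor inverse agonist) and Y-27632 (a ROCK inhibitor), and are called neuromesodermal progenitor (NMP)-like. P1 to P10 are successive passages in the same supplements, labelled as neural progenitors, from which pre-neural progenitor (PNP) and neural crest (NC) cells are obtained. Each of 3 differentiations, r1 to r3, gave a library at every time point, except that P9 had 2. At P5 and P8 the cultures were also split by selective detachment with TrypLE into an epithelial (EPI, PNP) and a mesenchymal (MES, NC) fraction, with 3 libraries each. All libraries came from a single cell line, and the basal medium changed between t0 and 36 h, so medium and cell state cannot be told apart in any comparison with t0.

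Glycolysis splits glucose into pyruvate in the cytosol. Lactate dehydrogenase turns pyruvate into lactate and regenerates NAD+, whereas the mitochondrial pyruvate carrier and pyruvate dehydrogenase pass it on to the TCA cycle, a step that the pyruvate dehydrogenase kinases switch off by phosphorylation. Pluripotent stem cells are known for a high rate of glycolysis, and many of its genes are targets of the hypoxia-inducible factor HIF1A, which binds with ARNT to the letters ACGTG or GCGTG.

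Promoter sequence was available for 31 of the 32 members (RefSeq, GRCh38.p14), with *PFKFB2* the exception, and these had 59 start sites in all. The following are the 250 bases before a start site of *PGK1*, *LDHA* and *HK2*, which were lower at P8 than at t0, and of *MPC1*, which was higher. They lie at chrX:78103998-78104247 (plus strand), chr11:18394313-18394562 (plus strand), chr2:74834920-74835169 (plus strand) and chr6:166382941-166383190 (minus strand). Capitals mark ACGTG or GCGTG on either strand, and the last base printed is the one before the start.
PGK1: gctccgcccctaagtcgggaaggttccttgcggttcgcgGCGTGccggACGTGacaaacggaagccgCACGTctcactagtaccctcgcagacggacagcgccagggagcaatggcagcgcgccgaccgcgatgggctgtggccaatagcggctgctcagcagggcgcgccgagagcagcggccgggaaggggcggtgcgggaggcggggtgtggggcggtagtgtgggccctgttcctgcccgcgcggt
LDHA: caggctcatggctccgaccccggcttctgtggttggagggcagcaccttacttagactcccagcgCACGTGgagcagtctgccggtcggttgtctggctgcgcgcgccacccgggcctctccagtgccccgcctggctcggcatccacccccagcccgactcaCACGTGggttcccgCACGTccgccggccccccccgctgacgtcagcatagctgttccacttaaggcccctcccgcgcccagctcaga
HK2: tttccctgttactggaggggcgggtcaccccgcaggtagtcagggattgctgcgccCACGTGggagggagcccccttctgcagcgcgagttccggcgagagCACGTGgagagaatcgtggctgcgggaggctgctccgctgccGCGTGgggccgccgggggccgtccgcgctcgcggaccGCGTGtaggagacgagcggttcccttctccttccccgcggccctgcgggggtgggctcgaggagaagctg
MPC1: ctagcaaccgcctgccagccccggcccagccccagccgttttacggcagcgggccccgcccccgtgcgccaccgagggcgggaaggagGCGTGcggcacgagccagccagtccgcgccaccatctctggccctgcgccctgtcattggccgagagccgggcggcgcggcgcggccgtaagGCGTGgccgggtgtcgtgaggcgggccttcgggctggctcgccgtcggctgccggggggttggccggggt
The *LDHA* sequence held 5 matches to ACGTG and none to GCGTG, *HK2* held 4 and 2, *PGK1* held 2 and 1, and *MPC1* held 0 and 2. CACGTG, the E-box letters, holds ACGTG on both strands and so counts as 2 of these matches. ACGTG lay in 20 of the 59 promoters of the members (33.9%) and in 18.5% of the 35116 promoters of all genes. For GCGTG the shares were 32.2% and 32.2%, for ACGTG or GCGTG 52.5% and 43.2%, and for CACGTG 13.6% and 6.34%. Within 100 bases of the start, ACGTG lay in 15.3% of the members' promoters and in 8.99% of all, and CACGTG in 3.39% and 3.43%. There the shares were 16.9% and 17.2% for GCGTG, and 25.4% and 24.1% for ACGTG or GCGTG. Start sites of the same gene were counted separately, so the 59 promoters are not independent. These matches describe the letters in the windows and were not set against binding data.

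Libraries held between 13029491 and 64082859 expected counts, with a median of 47292229. Values are given below as normalized counts (counts divided by a size factor for each library) where 1 gene is followed over samples, and as TPM, which divides by transcript length, where genes are compared with each other. Sizes of a rise or fall are log2 fold changes unless a fold is named, each with its SE. Marker genes were checked against the labels. The summed level of 5 pluripotency markers was between 3099 and 3474 TPM at t0 and between 121 and 362 TPM at P8, and that of 7 mesenchymal and neural crest markers was between 34.5 and 40.0 TPM at t0 and between 482 and 622 TPM in the P5 MES fraction, against 71.2 to 269 TPM in the P5 EPI fraction. At P8 the marker sums did not separate the fractions: the mesenchymal and neural crest sum was 88.4 to 733 TPM in EPI and 314 to 1082 TPM in MES, and that of 5 pre-neural epithelial markers 399 to 928 TPM in EPI and 152 to 680 TPM in MES. At P1 the summed level of 5 NMP-like markers was still 354 to 1277 TPM and that of 3 paraxial mesoderm markers reached 359 TPM, while the mesenchymal and neural crest sum was 10.7 to 70.5 TPM. Of 3 muscle markers, *MYOD1* and *MYOG* had at most 2.02 normalized counts in any fraction, whereas *DES*, a muscle intermediate filament, reached 14.0 TPM in EPI fractions and 13.0 TPM in a MES fraction, against at most 1.52 TPM at t0. The P1 library of r1 kept 1696 TPM of the pluripotency markers where r2 and r3 had 114 and 120 TPM, and that of P10 r1 had 235 TPM against at most 6.65 TPM in the other P10 libraries.

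The t0 library of r2 stood apart from the other t0 libraries in many genes of these pathways. Among members averaging 100 normalized counts or more at t0, its value was at least 1.5 times the mean of r1 and r3 for 10 of 29, against 2.25% of the 13272 genes at that level. For 19 hypoxia-response genes that are not glycolytic enzymes (17 of them at that level), 14 passed the same ratio, and their summed level was 1253 TPM in this library and 586 and 598 TPM in the other t0 libraries. *BNIP3*, a mitophagy receptor, had 12133 normalized counts in r2 and 2636 and 2735 in r1 and r3. *PFKFB4* stood 3.55-fold, *PGK1* 2.69-fold, *LDHA* 2.56-fold and *HK2* 2.31-fold above the mean of the other t0 libraries, whereas *LDHB* was at 1.03-fold and *MPC1* at 0.997-fold. The ratio of TCA cycle genes had a median of 1.00. Other genes stood out too. Of 11 glucose and lactate transport genes 3 passed the ratio, with *SLC16A3* at 9.58-fold and *SLC2A1* at 3.37-fold, and 299 genes passed it in all. The counts of members below t0 at each time point, and the values of genes called against t0 at P8, are given below with and without this library.

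**Figure D1:**
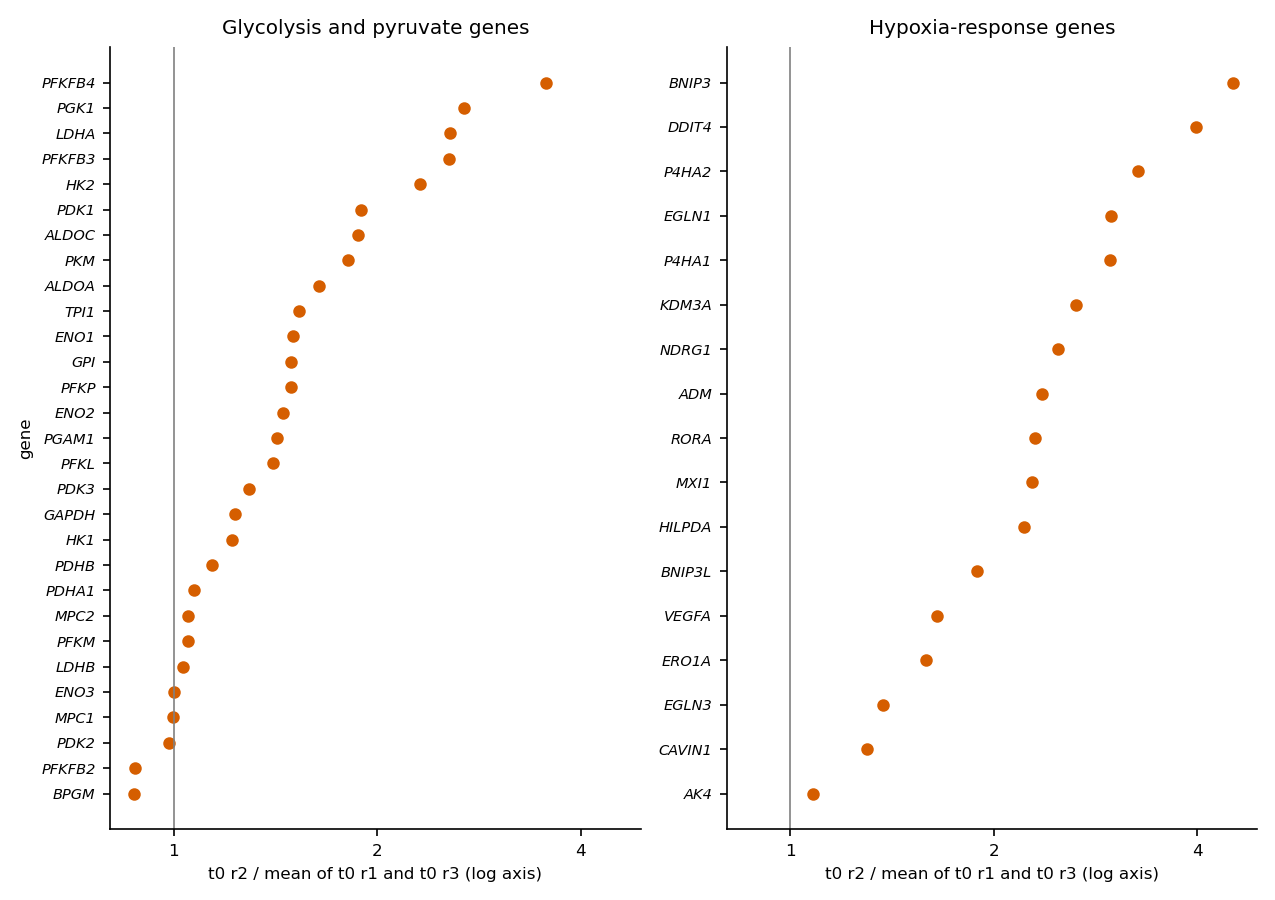
Ratio of normalized counts in the t0 library of differentiation r2 to the mean of the t0 libraries of r1 and r3 (horizontal log axis, no unit), for members (left) and hypoxia-response genes (right) averaging 100 normalized counts or more at t0; each point is 1 gene and the grey line marks equal levels. *PFKFB4* reached 3.55 and *PGK1* 2.69, while *MPC1* lay at 0.997.

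Many genes of the pathway were lower at P8 than in hESCs. In all, 22 of the 32 members were lower and 2 were higher (edgeR quasi-likelihood test, adjusted p under 0.05), where 24.9% of the 21750 genes tested were lower and 25.4% higher. The median log2 difference of the members was -0.62, against 0.02 over all genes tested. Without the t0 library of r2, 16 members were lower and 3 higher, the median was -0.56, and 21.0% and 21.6% of all genes were called. Of the 22, the same 16 were lower in both fits. The calls lost were those of *PFKL*, *TPI1*, *GAPDH*, *ENO1*, *PDHB* and *MPC2*, together with the rise of *PDK2*, and the calls gained were increases of *PKM* and *PFKFB3*. In bulk samples a smaller share of expressing cells and less RNA per cell cannot be told apart.

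The number of members below t0 was 4 at 36 h (6.06% of all genes), 12 at P1 (17.1%), 18 at P2 (21.3%), 18 at P3 (23.2%), 21 at P4 (23.7%), 18 at P5 (24.1%), 19 at P6 (24.4%), 20 at P7 (24.7%), 22 at P8, 20 at P9 (25.4%) and 21 at P10 (26.7%). With the t0 library of r2 left out it was 2 at 36 h (3.40%), 8 at P1 (13.1%), 13 at P2 (17.3%), 14 at P3 (19.0%), 15 at P4 (19.3%), 14 at P5 (20.4%), 14 at P6 (20.5%), 17 at P7 (21.2%), 16 at P8, 18 at P9 (22.0%) and 18 at P10 (23.0%). The number above t0 was 2 at 36 h (6.29%), 4 at P1 (16.5%), 1 at P5 (23.4%), 3 at P9 (27.0%) and 2 at P10 (27.3%). Without that library it was 1 at 36 h (3.73%), 4 at P1 (12.6%) and 3 at P5 (19.4%), P9 (23.8%) and P10 (23.8%). These comparisons share the t0 libraries. At P5 the median log2 difference of the members was -0.74 against 0.01 over all genes, and without the t0 library of r2 it was -0.51. Over the 12 time points as a whole, 29 members varied by edgeR, against 68.7% of all genes, and the exceptions were *BPGM* (adjusted p = 0.91), *PKM* (adjusted p = 0.30) and *PFKFB1* (adjusted p = 0.12), which DESeq2 called (30 members and 76.3% of all genes).

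**Figure D2:**
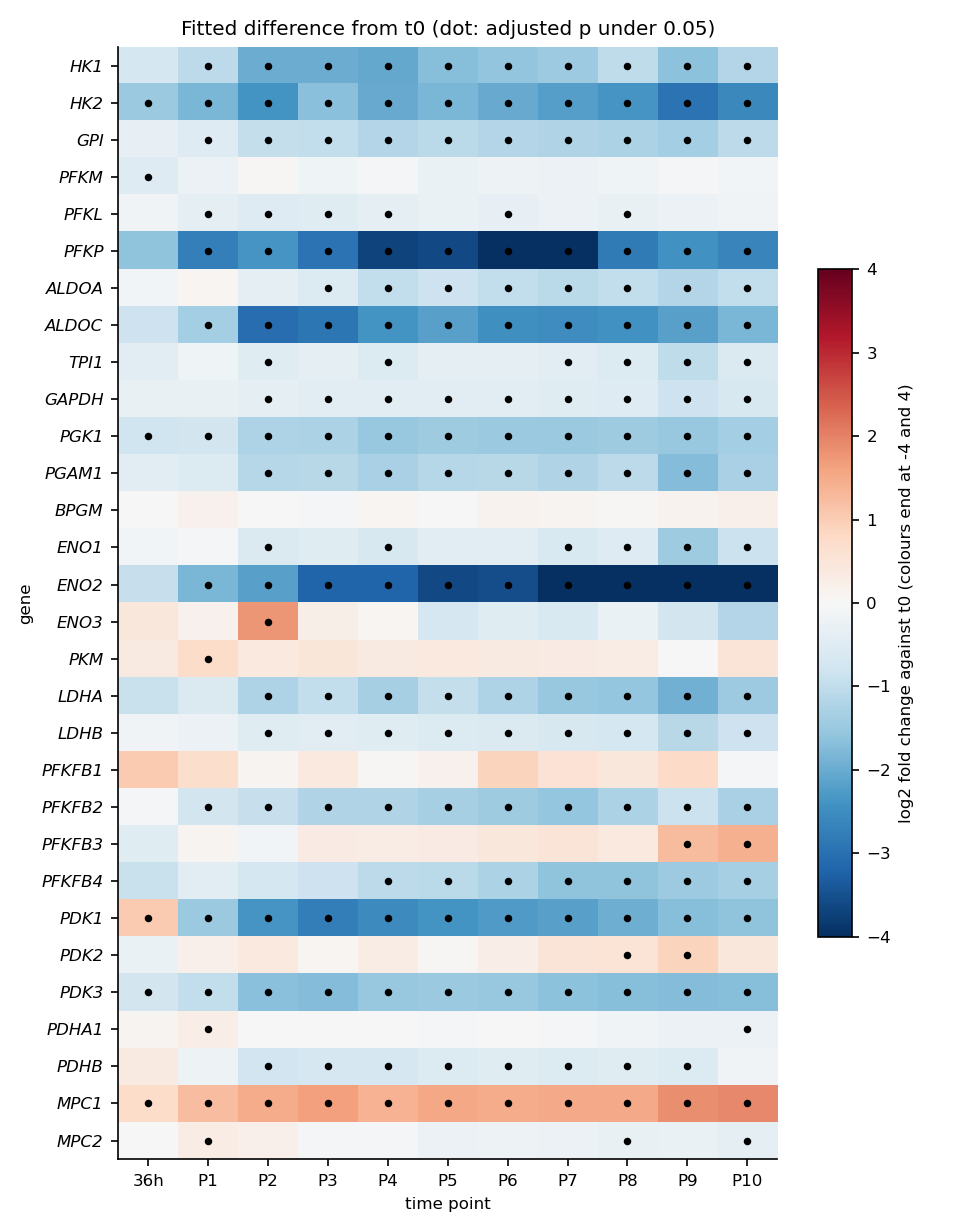
Fitted log2 fold change of each member against t0 (colour, ending at -4 and 4) by time point from 36 h to P10, with a dot where the edgeR adjusted p was under 0.05; *PGAM2* and *PDK4* are left out because their counts were near the floor of 3. *MPC1* was above t0 at every time point, *HK2* below it at every time point, and *PDK1* changed from above t0 at 36 h to below it from P1 on.

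Hexokinase, which traps glucose as glucose 6-phosphate, is made by *HK1* and by the inducible *HK2*. *HK2* had 7437, 16605 and 6923 normalized counts at t0 in r1, r2 and r3, and 3030, 1750 and 1494 at P8. Every P8 library lay below every t0 library. *HK2* fell by 2.36, as a log2 fold change (SE 0.31, edgeR adjusted p = 1.6e-06), and by 1.83 (SE 0.28, edgeR adjusted p = 1.8e-05) without the t0 library of r2. *HK1* had 16504, 19272 and 15034 normalized counts at t0 and 7005, 10674 and 7553 at P8, again without overlap. It fell by 1.03 (SE 0.28, edgeR adjusted p = 0.0036), and by 0.93 (SE 0.31, edgeR adjusted p = 0.02) without the t0 library of r2. The call of *HK1* was lost when r3 was left out, a fit that called 35.2% of all genes. The lowest mean of *HK1* was at P4, with 4102 ± 354 normalized counts (SD, n = 3). The share of *HK2* in the summed TPM of *HK1* and *HK2* was 22.1% ± 6.49 at t0, 21.5% ± 2.45 at P5 and 11.3% ± 5.39 at P8 (SD, n = 3). *GPI*, which converts glucose 6-phosphate to fructose 6-phosphate, had 16182, 22568 and 14071 normalized counts at t0 and 7763, 7480 and 6936 at P8, and fell by 1.26 (SE 0.18, edgeR adjusted p = 3.7e-06), and by 1.05 without the t0 library of r2.

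Among the phosphofructokinases, which commit the sugar to glycolysis, the platelet-type isozyme fell. *PFKP* had 4448, 6646 and 4447 normalized counts at t0, 2157, 1585 and 1168 at 36 h and 248, 1169 and 936 at P8. All t0 libraries lay above all later ones shown here, the 36 h and P8 groups overlapped, and the P8 library of r1 lay well below those of r2 and r3. *PFKP* fell by 2.84 (SE 0.59, edgeR adjusted p = 3.7e-04) between t0 and P8, and by 2.53 (SE 0.65, edgeR adjusted p = 0.0032) without the t0 library of r2. The lowest mean, 324 ± 173 normalized counts (SD, n = 3), was at P6. *PFKM* had 5297, 5571 and 5327 normalized counts at t0 and 4310, 5082 and 5174 at P8, a log2 difference of -0.18 (SE 0.12, edgeR adjusted p = 0.22). *PFKL*, the liver type, had 3740, 5459 and 4035 at t0 and 3061, 3427 and 4303 at P8, and its call at P8 (log2 fold change -0.31, edgeR adjusted p = 0.049) was lost without the t0 library of r2 (edgeR adjusted p = 0.51). In the summed TPM of the family, *PFKP* made up 36.0% ± 3.49 at t0 and 9.11% ± 5.04 at P8, and *PFKM* 38.1% ± 5.39 and 56.2% ± 3.71 (SD, n = 3).

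The PFKFB enzymes make and remove fructose 2,6-bisphosphate. *PFKFB2* had 1241, 1115 and 1308 normalized counts at t0 and 581, 449 and 516 at P8 and fell by 1.26 (SE 0.13, edgeR adjusted p = 5.4e-08), with the same value of 1.26 without the t0 library of r2. *PFKFB4* had 735, 2852 and 871 at t0 and 483, 446 and 494 at P8. It fell by 1.60 (SE 0.36, edgeR adjusted p = 8.0e-04), but by 0.74 (SE 0.28, edgeR adjusted p = 0.036) without the t0 library of r2. The call of *PFKFB4* was lost when all libraries of r2 were left out, a fit that called 29.4% of all genes. *PFKFB3* had 1778, 4502 and 1752 normalized counts at t0 and 3654, 2968 and 3558 at P8. Its log2 difference was 0.38 (SE 0.32, edgeR adjusted p = 0.34) with all libraries and 0.92 (SE 0.32, edgeR adjusted p = 0.024) without the t0 library of r2. In r2 *PFKFB3* was lower at P8 than at t0, and in r1 and r3 it was higher. Its share in the TPM of the family went from 43.4% ± 3.38 at t0 to 73.6% ± 0.965 at P8 and 81.2% ± 9.08 at P10 (SD, n = 3). *PFKFB1* was scarce, with group means between 10.7 and 23.5 normalized counts over the 12 time points.

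In the middle of the pathway, aldolase C, the brain isozyme, and aldolase A both fell. *ALDOC* had 2436, 4188 and 2048 normalized counts at t0 and 471, 527 and 626 at P8, and fell by 2.43 (SE 0.38, edgeR adjusted p = 1.6e-05), and by 2.06 without the t0 library of r2. It made up 4.69% ± 0.408 of the summed TPM of both aldolases at t0 and 1.95% ± 0.342 at P8 (SD, n = 3). *ALDOA* had 32756, 50643 and 28963 at t0 and 18805, 19945 and 17755 at P8, without overlap. It fell by 1.00 (SE 0.22, edgeR adjusted p = 5.2e-04), and by 0.71 (SE 0.22, edgeR adjusted p = 0.013) without the t0 library of r2. *TPI1*, which interconverts the triose phosphates, fell by 0.54 (edgeR adjusted p = 0.012) with all libraries, and without the t0 library of r2 its log2 difference was -0.33 (edgeR adjusted p = 0.15). *GAPDH*, which oxidises glyceraldehyde 3-phosphate and is often used as a reference gene, had 144410, 167532 and 128618 normalized counts at t0 and 101978, 99667 and 108204 at P8. The groups did not overlap and *GAPDH* fell by 0.52 (SE 0.15, edgeR adjusted p = 0.0073), but without the t0 library of r2 the difference was -0.39 (SE 0.17, edgeR adjusted p = 0.078).

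*PGK1* makes the first ATP of the pathway. It had 21094, 53382 and 18601 normalized counts at t0 and 11453, 12865 and 9987 at P8. All P8 libraries lay below all t0 libraries, and the highest t0 library was that of r2. *PGK1* fell by 1.42 (SE 0.25, edgeR adjusted p = 5.1e-05), and by 0.81 (SE 0.17, edgeR adjusted p = 7.8e-04) without the t0 library of r2. *PGAM1*, the main phosphoglycerate mutase, had 39582, 53320 and 35739 at t0 and 22389, 23743 and 17462 at P8 and fell by 1.04 (SE 0.24, edgeR adjusted p = 8.5e-04), and by 0.85 (edgeR adjusted p = 0.012) without the t0 library of r2. *PGAM2*, the muscle form, had at most 37 counts in a t0 library and at most 3 in a P8 library, so it was at or under the floor at P8. *BPGM*, which makes 2,3-bisphosphoglycerate, varied least of all members, with group means between 819 normalized counts at P3 and 983 at P10.

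The enolases differed among themselves. *ENO2*, the neuronal isozyme, had 4937, 8167 and 6332 normalized counts at t0, 6026, 3168 and 2096 at 36 h, 714, 553 and 429 at P5, 667, 136 and 279 at P8 and 317, 108 and 121 at P10. Its group mean was 35.6-fold higher at t0 than at P10, the widest range of any member with a lowest mean above the floor. *ENO2* fell by 4.36 at P8 (SE 0.58, edgeR adjusted p = 1.7e-06), and by 4.05 (SE 0.60, edgeR adjusted p = 1.4e-05) without the t0 library of r2. *ENO1*, the ubiquitous enolase, had 79861, 111940 and 69439 at t0 and 69752, 67238 and 48971 at P8. These groups overlapped, and the decrease of 0.51 (edgeR adjusted p = 0.047) was not called without the t0 library of r2 (log2 difference -0.31, edgeR adjusted p = 0.30). *ENO3*, the muscle isozyme, was uneven at P2, with 129, 1456 and 1677 normalized counts in r1, r2 and r3, while its t0 libraries had 309, 324 and 339. At P8 it had 261, 298 and 259 (log2 difference -0.26, edgeR adjusted p = 0.73). *ENO2* made up 5.49% ± 0.995 of the TPM of the enolases at t0 and 0.435% ± 0.267 at P8 (SD, n = 3).

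Pyruvate kinase did not share the decrease. *PKM* had 31207, 53604 and 28131 normalized counts at t0, 45473, 46012 and 50039 at 36 h, 71378, 61654 and 53510 at P1 and 48937, 48758 and 42146 at P8. It was higher at P1 than at t0 (log2 fold change 0.72, SE 0.23, edgeR adjusted p = 0.016; 1.07 without the t0 library of r2). At P8 the log2 difference was 0.30 (SE 0.22, edgeR adjusted p = 0.27) with all libraries and 0.65 (SE 0.23, edgeR adjusted p = 0.028) without the t0 library of r2. The deposited counts are per gene and do not separate the M1 and M2 splice forms of *PKM*. Of the lactate dehydrogenase subunits, *LDHA* had 29568, 68073 and 23596 normalized counts at t0 and 16105, 10758 and 14650 at P8. It fell by 1.56 (SE 0.34, edgeR adjusted p = 6.6e-04), and by 0.91 (SE 0.31, edgeR adjusted p = 0.02) without the t0 library of r2. The call of *LDHA* was lost when all libraries of r2 were left out, a fit that called 29.4% of all genes. *LDHB* was even at t0, with 64705, 64839 and 61808, and had 45312, 37327 and 37084 at P8, a decrease of 0.70 (SE 0.13, edgeR adjusted p = 1.0e-04), and of 0.66 without the t0 library of r2. The share of *LDHA* in the TPM of both subunits was 22.2% to 44.9% at t0 and 18.6% to 23.1% at P8.

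Of the pyruvate dehydrogenase kinases, *PDK1* rose by 36 h and fell by P1. *PDK1* had 3490, 6757 and 3672 normalized counts at t0, 8222, 11047 and 9550 at 36 h, 1370, 1247 and 2294 at P1, 653, 753 and 640 at P3 and 1001, 1429 and 1154 at P8. All 36 h libraries lay above all t0 libraries, and all later libraries lay below them. *PDK1* rose 2.09-fold from t0 to 36 h (log2 fold change 1.06, SE 0.26, edgeR adjusted p = 0.0083), and by a log2 value of 1.42 (SE 0.27, edgeR adjusted p = 0.0025) without the t0 library of r2. The call of this rise was lost when r3 was left out, a fit that called 1.93% of all genes. *PDK1* fell by 2.55 from 36 h to P1 (SE 0.27, edgeR adjusted p = 1.4e-05), which is 5.87-fold, and the P1 libraries lay below the 36 h libraries in 3 of 3 differentiations. Between t0 and P8 *PDK1* fell by 1.96 (SE 0.27, edgeR adjusted p = 2.5e-06), and by 1.60 without the t0 library of r2. *PDK3* had 1671, 2006 and 1439 at t0 and 743, 414 and 464 at P8 and fell by 1.70 (SE 0.17, edgeR adjusted p = 3.6e-08), and by 1.51 without the t0 library of r2. *PDK2* had 605, 620 and 656 at t0 and 691, 961 and 1154 at P8. It rose by 0.55 (SE 0.22, edgeR adjusted p = 0.044), a call that was lost without the t0 library of r2 (log2 difference 0.57, edgeR adjusted p = 0.086).

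In shares of the TPM of the 4 kinases, *PDK1* made up 51.7% ± 7.19 at t0, 76.4% ± 3.20 at 36 h and 28.3% ± 6.64 at P8, and *PDK2* 15.2% ± 3.67, 8.39% ± 1.83 and 47.6% ± 6.33 (SD, n = 3). *PDK3* made up 33.1% ± 3.74 at t0 and 23.5% ± 9.36 at P8, ranges that overlapped. *PDK4* stayed scarce. It had 6, 3 and 3 counts at t0, 0 in every P5 library and 5, 30 and 35 at P8, and its difference between P8 and t0 had an SE of 1.43 on the log2 scale (edgeR adjusted p = 0.22).

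**Figure D3:**
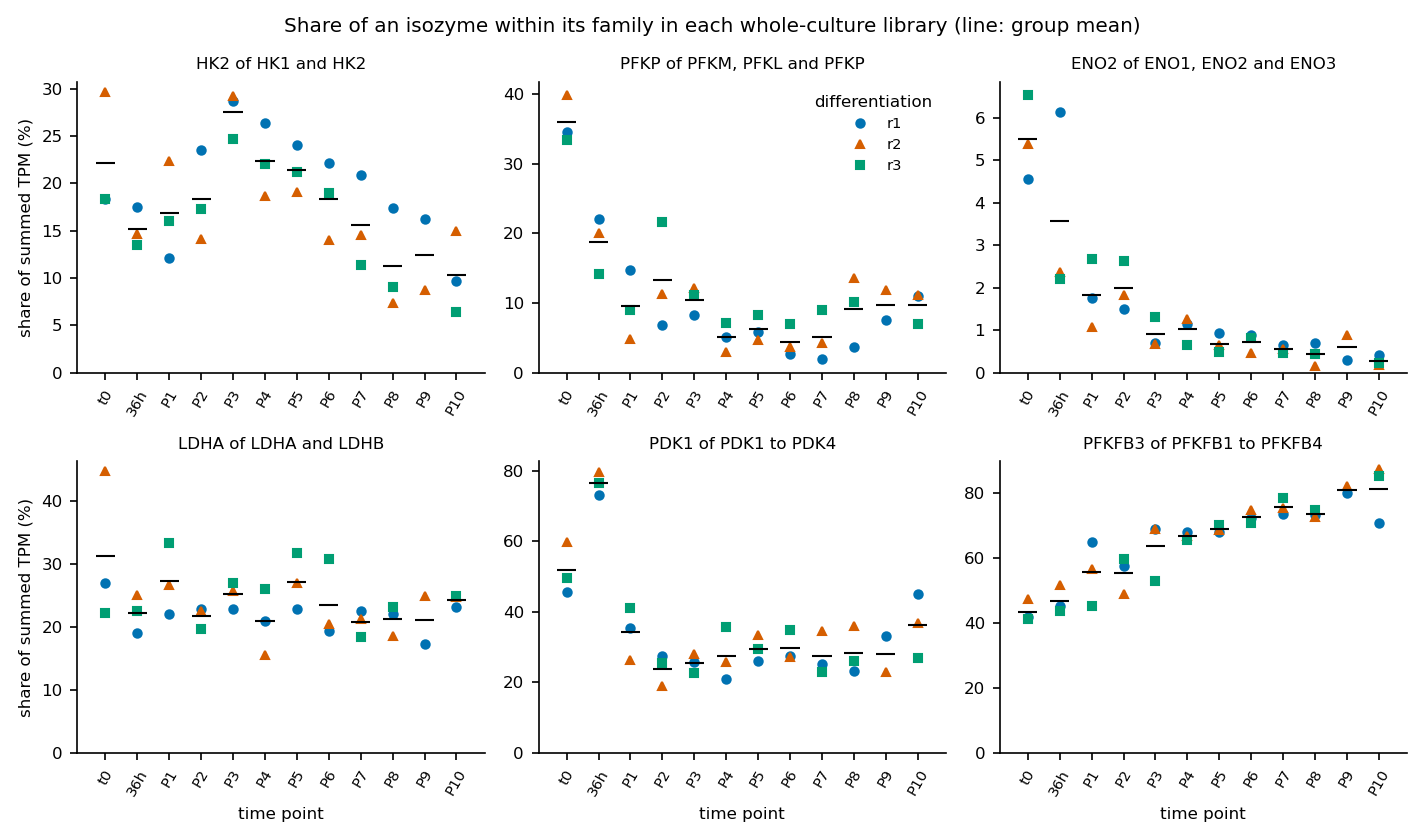
Share of 1 isozyme in the summed TPM of its family (vertical axis, %) in each whole-culture library by time point; symbols stand for the differentiations r1 to r3 and black lines for group means. *PDK1* made up 76.4% of the kinases at 36 h and 28.3% at P8, and *PFKP* went from 36.0% at t0 to 9.11% at P8.

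*MPC1*, a subunit of the mitochondrial pyruvate carrier, was above t0 at every later time point. It had 244, 231 and 219 normalized counts at t0, 296, 436 and 422 at 36 h, 493, 691 and 466 at P1, 614, 760 and 640 at P8 and 731, 1046 and 858 at P10. No later library overlapped with t0. *MPC1* rose 2.86-fold between t0 and P8 (log2 fold change 1.51, SE 0.19, edgeR adjusted p = 6.9e-07), with a log2 fold change of 1.48 without the t0 library of r2. The increase at 36 h was 0.73 in log2 units (SE 0.19, edgeR adjusted p = 0.011) and was not called without that library (0.69, edgeR adjusted p = 0.052). Its partner *MPC2* had 849, 885 and 833 at t0 and 689, 705 and 734 at P8, a decrease of 0.29 (SE 0.11, edgeR adjusted p = 0.033) whose call was also lost (edgeR adjusted p = 0.11). In TPM, *MPC1* was at 11.3 and *MPC2* at 39.0 at t0, and at P8 they stood at 34.5 and 34.4.

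Of the subunits of the catalytic component of pyruvate dehydrogenase, *PDHB* was lower at P8 than at t0 and *PDHA1* was not called. *PDHA1* had 4383, 4577 and 4197 normalized counts at t0 and 4497, 3754 and 3853 at P8 (log2 difference -0.14, SE 0.09, edgeR adjusted p = 0.20). *PDHB* had 4468, 4938 and 4181 at t0, 5957, 7499 and 4163 at 36 h and 3188, 3677 and 2892 at P8. It fell by 0.50 (SE 0.18, edgeR adjusted p = 0.022) between t0 and P8, with -0.46 (edgeR adjusted p = 0.075) without the t0 library of r2.

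**Figure D4:**
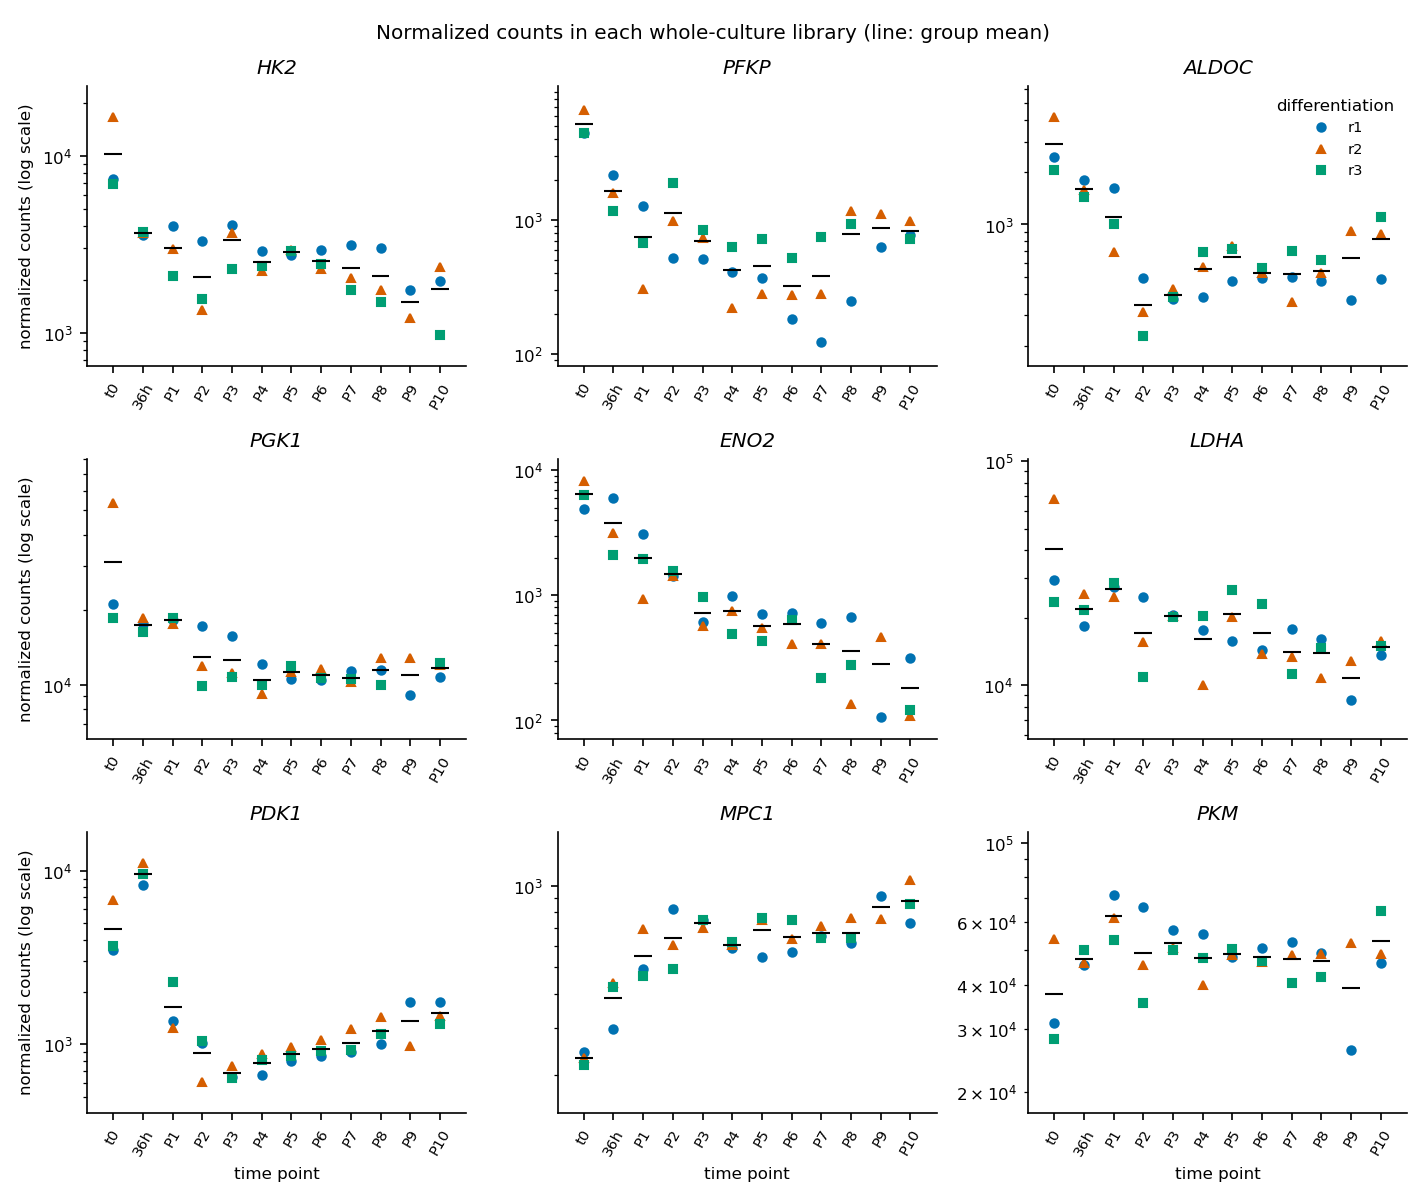
Normalized counts (vertical log axes) of 9 members in each whole-culture library from t0 to P10; symbols stand for the differentiations r1 to r3 and black lines for group means. The t0 library of r2 is the highest t0 point for *HK2*, *PGK1* and *LDHA*, *PDK1* peaks at 36 h with a mean of 9606, and *MPC1* has a mean of 231 at t0 and 878 at P10.

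During the 36 h of NMP induction 6 of the 32 members changed, 4 lower and 2 higher, where 6.06% and 6.29% of all genes did. *HK2* fell from 7437, 16605 and 6923 normalized counts to 3596, 3668 and 3723, a decrease of 1.47 (SE 0.30, edgeR adjusted p = 0.0023), and of 0.94 (edgeR adjusted p = 0.04) without the t0 library of r2. *PFKM* fell by 0.52 (SE 0.12, edgeR adjusted p = 0.0047), *PDK3* by 0.72 (SE 0.17, edgeR adjusted p = 0.0058) and *PGK1* by 0.79 (SE 0.24, edgeR adjusted p = 0.034), while *PDK1* and *MPC1* rose. Without the t0 library of r2, *HK2*, *PFKM* and *PDK1* were called, where 3.40% of all genes were lower and 3.73% higher, and *PGK1*, with a log2 difference of -0.18 (edgeR adjusted p = 0.62), was among the 3 calls lost. The median log2 difference of the members was -0.31 with all libraries and -0.12 without this one, against 0.00 and 0.02 over all genes. With all libraries of r2 left out, *PDK1* was the only member called at 36 h, and with r3 left out *HK2* was. These fits called 1.78% and 1.93% of all genes. From 36 h to P1, 3 members fell and 0 rose, against 4.34% and 4.14% of all genes. They were *PDK1*, *PFKFB2* with a decrease of 0.64 (SE 0.13, edgeR adjusted p = 0.0037) and *PDHB* with a decrease of 0.57 (SE 0.18, edgeR adjusted p = 0.046). *PDK1* was the single member called without r2 and without r3, fits that called 0.0222% and 0.682% of all genes. When the fit held these 6 libraries alone, 0 of 17426 genes were called, so it says nothing about the members. The P1 library of r1, which kept pluripotency markers, had 14320 normalized counts of *HK1* where r2 and r3 had 4961 and 5489. Without it and the 5 other libraries that stood apart or were smallest, 10 members were called between 36 h and P1, 2 higher and 8 lower, with 19.3% of all genes called in either direction.

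The later passages were compared with each other. From P5 to P8, 0 members rose or fell by edgeR, where 0.198% of all genes were higher and 0.0644% lower. At an unadjusted p under 0.05 there were 3 of 32 members and 13.3% of all genes, and DESeq2 called 1 member (*PDK4*) and 3.07% of all genes. *HK1* had 4178, 6099 and 5253 normalized counts at P5 and 7005, 10674 and 7553 at P8, higher in 3 of 3 differentiations and without overlap (log2 difference 0.68, SE 0.28, edgeR adjusted p = 0.27). From P8 to P10, 0 members were called by edgeR, where 1.64% of all genes were higher and 0.478% lower. At an unadjusted p under 0.05 there were 2 of 32 members and 16.4% of all genes, and DESeq2 called 1 member (*PFKFB3*) and 6.01% of all genes. *PFKFB3* had 2771, 9508 and 9040 normalized counts at P10 against 3654, 2968 and 3558 at P8 (log2 difference 1.03, SE 0.32, edgeR adjusted p = 0.094). It was higher in r2 and r3 and lower in r1. The P10 library of r1 had 235 TPM of the pluripotency markers, within the 121 to 362 TPM of the P8 libraries. The paper placed this library in its group with P5 to P8. Other markers moved as well. The mesenchymal and neural crest sum was 121 to 711 TPM at P8, 1085 to 1113 TPM at P9 and 204 to 1004 TPM at P10. That of the pre-neural epithelial markers was 316 to 994 TPM at P8, 117 to 124 TPM at P9 and 66.0 to 726 TPM at P10. The part of this shift in the values of *PFKFB3* was not tested. Against t0, *PFKFB3* was higher at P9 (log2 fold change 1.27, edgeR adjusted p = 0.0041) and P10 (1.42, edgeR adjusted p = 8.1e-04), with 1.85 and 1.97 without the t0 library of r2.

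Added up over the 17 genes of the 10 glycolytic steps, the libraries at t0 held 12897 ± 2846 TPM, those at 36 h 10897 ± 996, at P1 11305 ± 3286, at P8 8995 ± 489 and at P10 8195 ± 273 (SD, n = 3). Without *GAPDH* the sums were 8174 ± 2347 at t0 and 5377 ± 574 at P8. The t0 library of r2 held 16085 TPM, and the lowest t0 library, with 10611 TPM, was still above the highest P8 library, with 9540 TPM. By mean TPM at t0, *GAPDH* (4723), *LDHB* (2058), *ENO1* (1965), *ALDOA* (1453) and *PGK1* (1149) were the most abundant members. At P8 the order was *GAPDH* (3618), *ENO1* (1512), *LDHB* (1368), *PKM* (937) and *ALDOA* (813). Without the t0 library of r2, *PGK1* (758) was 7th at t0, after *PGAM1* (836) and *TPI1* (814), and *PKM* was 9th with or without it.

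The epithelial and mesenchymal fractions were compared within each passage. At P5, 2 of the 31 members tested were higher in MES and 1 was lower, shares near the 4.62% and 3.27% of the 18885 genes tested. DESeq2 called 5 members and 15.6% of all genes, and the fit of these 6 libraries alone 7 members and 21.3%. *PFKP*, *ENO2* and *MPC1* were among both. *PFKM* had 3858, 3970 and 4301 normalized counts in EPI and 5521, 5105 and 5731 in MES, with no overlap and a log2 difference of 0.46 (SE 0.08, edgeR adjusted p = 0.022). *ALDOC* had 416, 608 and 634 in EPI and 784, 912 and 900 in MES, again apart, with 0.69 (SE 0.14, edgeR adjusted p = 0.028). The lower call was that of *PDK4*, which had at most 3 counts in any P5 fraction, so no fold is given. *PFKP* was higher in MES in 3 of 3 differentiations, with 185, 202 and 455 normalized counts in EPI and 955, 639 and 907 in MES, but was not called by edgeR in the fit of all fractions (log2 difference 1.77, SE 0.53, edgeR adjusted p = 0.077). *MPC1* was also higher in MES in 3 of 3, with 569, 713 and 718 in EPI and 713, 916 and 830 in MES. Its ranges overlapped, and it was not called in that fit. *ENO2* was lower in MES in 3 of 3, with 799, 638 and 661 in EPI and 515, 280 and 206 in MES (log2 difference -1.16, SE 0.34, edgeR adjusted p = 0.072). The summed level of 4 neuron markers was 192 to 290 TPM in P5 EPI and 76.5 to 163 TPM in P5 MES. Of these markers 1 was lower and 3 were higher in MES by log2 difference, and 0 were called. The calls of *PFKM* and *ALDOC* were lost when any 1 differentiation was left out and without the replicate block, fits that called at most 1.10% of all genes.

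At P8 no member was called between MES and EPI by edgeR (2 of 31 at an unadjusted p under 0.05, against 12.0% of all genes) or DESeq2 (2.02% of all genes), where edgeR called 0% of all genes higher and 0% lower. *PFKM* had 4148, 5187 and 5500 normalized counts in EPI and 4520, 5142 and 5494 in MES (log2 difference 0.04, SE 0.08, edgeR adjusted p = 0.90). The differences between fractions were tested against each other across passages, and 0 of 31 members were called by edgeR (3 at an unadjusted p under 0.05, against 6.10% of all genes) or DESeq2 (0.0265% of all genes), and edgeR called 0% of all genes higher and 0% lower. In *LDHA*, *GAPDH*, *PGK1* and *PKM* the log2 difference between fractions was between -0.16 and 0.27 at P5 and between -0.02 and 0.09 at P8. *LDHB*, also not called, had 42899, 38678 and 39766 normalized counts in P8 EPI and 37006, 35257 and 33012 in P8 MES, without overlap. By log2 difference at P8, 14 members were lower and 17 higher in MES.

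**Figure D5:**
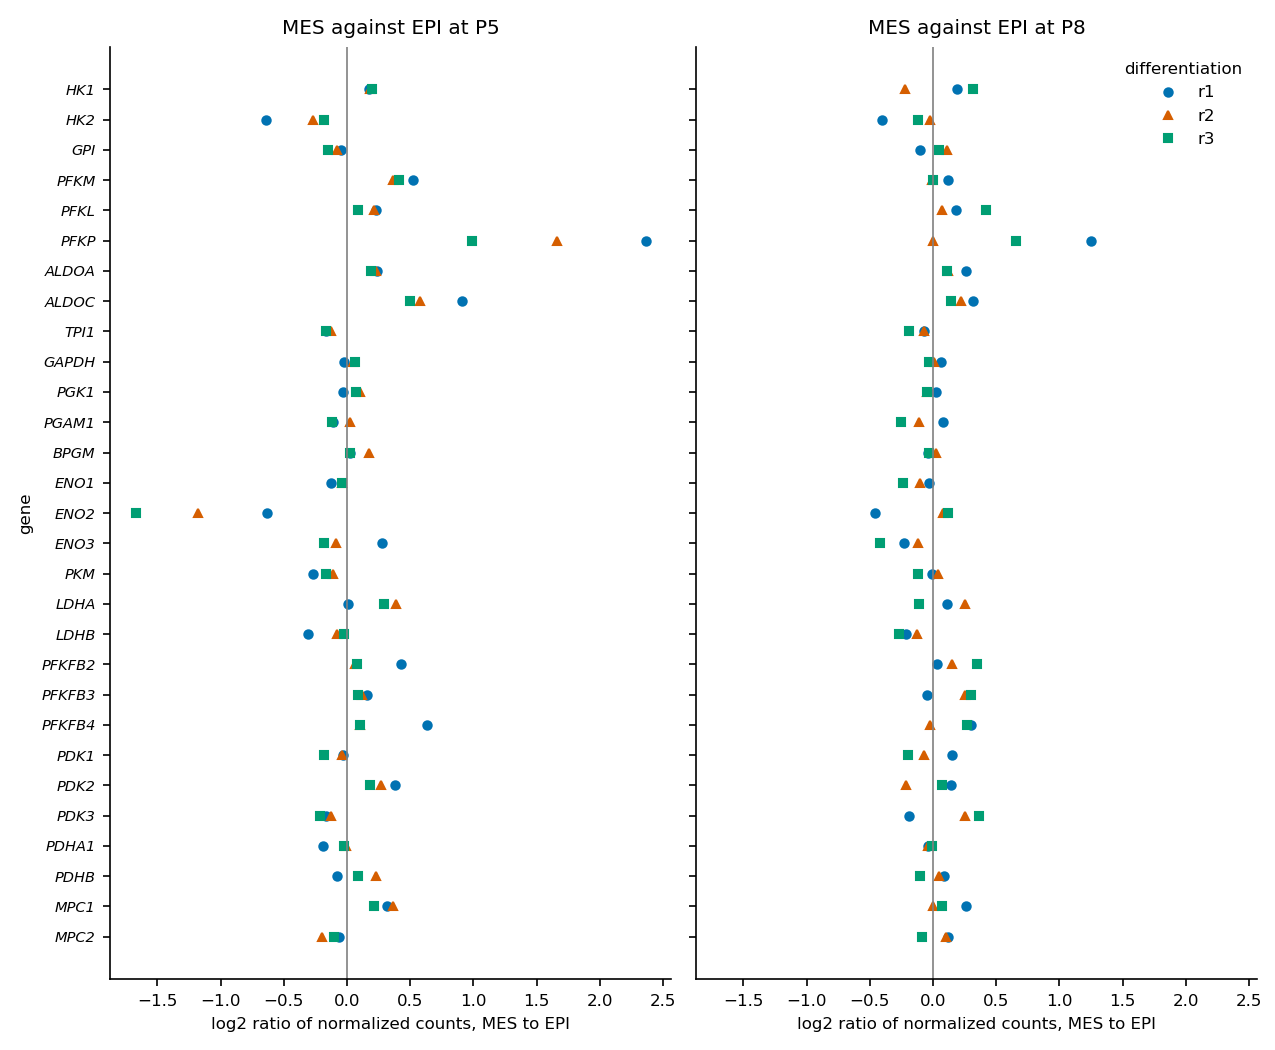
Log2 ratio of normalized counts in the MES to the EPI fraction of the same differentiation (horizontal axis) at P5 (left) and P8 (right) for 29 members, with symbols for r1 to r3; *PGAM2*, *PFKFB1* and *PDK4* are left out for low counts. *PFKP* and *ENO2* show the widest ratios at P5, up to 2.36 and down to -1.67.

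Genes around the pathway were counted in the same fits, from lists chosen with earlier results of these data known. Of 11 glucose and lactate transport genes, 6 were lower and 0 higher at P8 than at t0, where 24.9% of all genes were lower and 25.4% higher, with a median log2 difference of -1.41. Without the t0 library of r2, 5 were lower and 0 higher. *SLC16A1*, a lactate and pyruvate transporter, fell by 1.49 (SE 0.15, edgeR adjusted p = 3.6e-08), with the same value without that library, and the insulin-responsive *SLC2A4* by 1.52 (SE 0.29, edgeR adjusted p = 1.2e-04), called without it as well. *SLC16A3*, a lactate exporter, had 228, 2369 and 267 normalized counts at t0 and 58.3, 107 and 57.3 at P8. It fell by 3.60 (SE 0.80, edgeR adjusted p = 6.8e-04), but by 1.68 (SE 0.65, edgeR adjusted p = 0.04) without the t0 library of r2. *SLC2A1*, the general glucose transporter, had 8840, 32513 and 10448 normalized counts at t0 and 5450, 11672 and 3423 at P8, groups that overlapped, and its decrease of 1.41 (edgeR adjusted p = 0.041) was not called without the t0 library of r2 (log2 difference -0.72, edgeR adjusted p = 0.36). It was named after its values were seen. Of 17 TCA cycle genes, 2 were higher and 7 lower, with a median of -0.18, and of 8 pentose phosphate genes 1 was higher and 3 lower, to be read against the same 24.9% and 25.4%. The counts without the t0 library of r2 were 2 and 4, and 0 and 3. *TKT* and *TALDO1*, which shuttle sugars between both pathways, fell by 1.35 (SE 0.15, edgeR adjusted p = 9.5e-08) and 0.98 (SE 0.10, edgeR adjusted p = 8.9e-08), and by 1.27 and 0.97 without that library. Of the 6 tested partners of pyruvate dehydrogenase 3 were lower, of the 5 gluconeogenesis genes tested 3, and of the 6 tested isozymes outside the set 4 were lower and 1 higher. Without that library 3, 2 and 4 were lower and none was higher.

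Among 9 regulators, 6 were lower and 1 was higher at P8 (24.9% and 25.4% of all genes), and without the t0 library of r2 5 were lower and 0 higher (21.0% and 21.6%). *MYC* had 1951, 2412 and 1624 normalized counts at t0 and 91.5, 365 and 261 at P8 and fell by 3.14 (SE 0.63, edgeR adjusted p = 2.4e-04), or 3.06 without that library. *LIN28A*, an RNA-binding protein of pluripotent cells, fell by 2.59 (SE 1.01, edgeR adjusted p = 0.036), a call lost without it (log2 difference -2.43, edgeR adjusted p = 0.08). Of the 19 hypoxia-response genes, 7 were lower and 2 higher at P8 with a median of -0.50, against 24.9% and 25.4% of all genes. Without the t0 library of r2, 5 were lower (26.3%) and 4 higher (21.1%) with a median of -0.01. Only in that fit were the shares close to those of all genes (21.0% and 21.6%). With all libraries the 2 called higher were *MXI1*, a MYC antagonist (1.92, SE 0.41, edgeR adjusted p = 4.3e-04), and *P4HA1*, a collagen prolyl hydroxylase (1.02, SE 0.24, edgeR adjusted p = 0.0012), both named after their values were seen, with 2.37 and 1.59 without the t0 library of r2. *EGLN3*, a HIF prolyl hydroxylase, fell by 4.91 (SE 0.47, edgeR adjusted p = 1.9e-08) and *AK4*, a mitochondrial adenylate kinase, by 4.25 (SE 0.57, edgeR adjusted p = 2.0e-06), and without the t0 library of r2 by 4.58 and 4.30. At P5, 11 of the 19 were lower than at t0 and 1 higher with a median of -1.55, against 24.1% and 23.4% of all genes. Without the t0 library of r2, 7 were lower and 3 higher at P5 with a median of -0.94, against 20.4% and 19.4%. The summed level of the list was 359 to 390 TPM at P5 and 465 to 579 TPM at P8. It was 579 to 1009 TPM in the 2 libraries of P9, and 470 to 607 TPM at P10. Its part in the members' changes was not tested.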

How the data were processed

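Polyadenylated RNA was sequenced as single-end reads of 75 bases. Tools named in the submitters' processing notes are cutadapt 1.16, STAR 2.5.2b and RSEM 1.3.0, with GRCh38; the annotation release and the strand setting are not given in the sources used here. The authors deposited, for each library, RSEM expected counts per gene and TPM, with gene lengths. Of 58051 genes, 57447 were matched to a symbol. The members and lists were chosen with earlier results of these data known.

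Expected counts as deposited were rounded (9.332% were not whole) and tested with edgeR 4.0.16 in R 4.3.3 (quasi-likelihood test, TMM scaling, filterByExpr, Benjamini-Hochberg adjustment over all genes tested). Whole cultures (35 libraries) and fractions (12 libraries) were fitted separately, each with the differentiation number as a block, because every differentiation was carried through the time points (P9 has 2). Deviations from group means had a mean r of 0.124 over 345 pairs of same-numbered libraries, and of 0.278 in the fractions. For unlike numbers it was -0.062 over 690 pairs, and -0.138 in the fractions. Deviations cancel out within a group, so the values for unlike numbers follow from the others and are no separate comparison. SE was the log2 fold change divided by the root of F. Normalized counts were scaled over all 47 libraries. A count of 3 or less was taken as the floor. The deposited TPM values were used for shares and for levels between genes. Reads of near-identical retrocopies made up at most 0.824% of a parent and its copies. All members were accounted for; from other lists, at most the 4 called genes with the largest change were named, apart from the exceptions stated. The test was tried on simulated counts first. Alternatives were DESeq2 1.42.0, other filters, scalings and samples in the fit, no block, leaving out each differentiation, retrocopies added to the parent, and the study's call rule. Leaving out the t0 library of r2, and the 6 libraries that stood apart or were smallest for some comparisons, was chosen after seeing the data.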

Additional observations from a re-analysis of the deposited data

How the results depend on the processing

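No called member changed its direction under any alternative run. Counts of called members at P8 against t0 were 24 and lay between 16 and 23 when a differentiation or the t0 library of r2 was left out; for P5 against t0 they were 19 and between 14 and 19, for 36 h against t0 6 and between 1 and 11, for P1 against 36 h 3 and between 1 and 6, and for the change over all time points 29 and between 18 and 29. The same fits called 29.4% to 49.8%, 28.4% to 45.8%, 1.78% to 17.0%, 0.0222% to 16.6% and 32.6% to 69.8% of all genes. They were between 0 and 1 for P8 against P5 (*HK1* without r1), between 0 and 2 for P10 against P8 (*ENO3* and *PFKFB3* without r1), where the fits without r1 called 6.36% and 17.2% of all genes, and 0 for MES against EPI at P5. Without the t0 library of r2 alone, 3 members were called at 36 h. The study's call rule (adjusted p under 1%, at least 2-fold, mean of at least 100) was put on the edgeR results. It called 2 members at 36 h, 1 at P1 against 36 h, 12 at P5 and 15 at P8. Between MES and EPI at P5 it called 0. In these edgeR fits the same rule called 2.69%, 1.19%, 14.2%, 15.3% and 0% of all genes tested. The paper, which names DESeq2, reports genes passing its rule both at 36 h and between the P5 fractions. Its counts for both were larger than those of the edgeR fits. For P1 against 36 h, DESeq2 gave 5, all 47 libraries in the fit 5, the compared libraries alone 0 and the fit without the 6 libraries 10, with 2866, 2704, 0 and 4162 of all genes called against 1845. For P8 against P5, DESeq2 gave 1 and the fit without the 6 libraries 1 (*HK1*), with 668 and 542 of all genes against 57. For P10 against P8 they gave 1 and 3 (*ENO3*, *PDHB* and *PFKFB3*), with 1308 and 4033 of all genes against 460. For MES against EPI at P5, DESeq2 gave 5, all 47 libraries 1 and the compared libraries alone 7, with 2946, 242 and 3763 of all genes against 1490. The cause of these differences was not tested.

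Without the replicate block, 6 members were called at 36 h, 2 at P1 against 36 h, 19 at P5, 22 at P8 and 28 over all time points (9.96%, 6.35%, 44.8%, 47.9% and 65.3% of all genes), and 0 of 3 remained between MES and EPI at P5, where 0% of all genes were called; the block changed no other count from 0. *PGAM2*, *PDK4* and *PFKFB1* were limited by their low counts.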
